A study of Mus musculus with 16 samples.

Results

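Imprinted genes are transcribed mainly from the copy inherited from 1 parent, and 42 of them, sorted into 17 clusters or lone loci, were followed across mouse pluripotent stem cells in 4 culture conditions. The genes were taken from a list of symbols, and a probe was assigned when its RefSeq accession mapped to a listed gene. Of the 42, 39 had at least 1 probe, of which 37 were tested. The 3 others (H19, Meg3 and Rian) were not matched to a probe and are not analysed here. The 37 stand among 15517 tested genes of 20972 with a named probe. Kcnq1 and Rtl1 had a probe that was not well above background on all 4 arrays of any group and are given no test.

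RNA from 16 stem cell lines of the 129/Ola strain was hybridised to single-colour Agilent arrays, with 4 lines in each of 4 groups. EpiSC lines are primed cells that came from the post-implantation epiblast and were kept in Activin A and bFGF, at passages 24 to 28. The 2iSB_LIF lines are ground state cells kept in 2i (a pair of kinase inhibitors), the TGF-beta receptor inhibitor SB431542 and LIF, at passages 17 to 24, and the 2i_LIF lines are ground state cells kept in 2i and LIF, at passages 22 to 24. The LIF_serum lines, labelled naive, were kept in LIF and serum at passages 23 to 26, and like both ground state groups they came from pre-implantation embryos. Each line is 1 array, so every spread below is a spread between lines, and the number of arrays limits the precision. LIF_serum arrays 1 and 2 carry the sample code LS and arrays 3 and 4 the code LSFF, and the labels do not say what sets the codes apart.

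At imprinted loci a differentially methylated control region, set in the egg or the sperm, silences or permits transcription of the neighbouring genes on that copy, often through a long noncoding RNA or the insulator protein CTCF. After fertilisation the marks are held by DNMT1 and by ZFP57, a zinc finger protein that binds the methylated copy, and their loss or gain in culture is a known feature of mouse stem cell lines. Several paternally expressed genes promote growth of the fetus and placenta, and several maternally expressed genes restrain it. The arrays read total transcript, so which parental copy was active was not measured, and more transcript from the active copy cannot be told apart from transcription of both copies.

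Levels are given as the log2 processed signal relative to the 75th percentile of its array. A gene was called when limma's adjusted p (Benjamini-Hochberg over all 15517 genes) was under 0.05 and the difference was at least 2-fold. Where every line of the brighter group and no line of the dimmer one passed the mark for signal over background, the fold is given as a bound against the background floor. Well above background was the scanner software's mark, passed by 51.5% to 63.6% of probes per array. All 7 pluripotency markers (such as Pou5f1 and Sox2) were well above background on every array, and 8 of 9 naive markers were lower in EpiSC than in LIF_serum. Fibroblast markers were present too. Of 20 listed, 19 were tested, and their median level was 3.1 to 3.5 in EpiSC, −4.58 to −3.69 in 2iSB_LIF, −5 to −2.81 in 2i_LIF, 1.73 and 1.79 on the LS arrays and −2.71 and −2.68 on the LSFF arrays. Their summed level, in multiples of the 75th percentile, was 441 to 599 in EpiSC, 129 to 186 in 2iSB_LIF, 140 to 162 in 2i_LIF, 253 and 296 on the LS arrays and 116 and 130 on the LSFF arrays. All 19 were well above background in EpiSC and on the LS arrays, against 9 to 13 in 2iSB_LIF, 8 to 13 in 2i_LIF and 15 and 16 on the LSFF arrays. In cultures that may hold several cell types, fewer cells of a type and less RNA per cell cannot be told apart.

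The tested members split between directions in EpiSC and were mostly lower, where called, in both ground state groups. In EpiSC against LIF_serum 7 members were higher and 5 lower, 32.4% of the 37, where 33.6% of all tested genes were called (18% higher and 15.6% lower). The lines of the groups did not overlap in 24 members, and in 58.8% of all genes. In 2iSB_LIF against LIF_serum 1 was higher and 13 lower, 37.8% of the members, against 20.1% of all genes (6.81% higher and 13.3% lower). The lines did not overlap in 12 members, and in 29.6% of all genes. In 2i_LIF against LIF_serum 1 was higher and 14 lower, 40.5% of the members, against 18.3% of all genes (6.25% higher and 12.1% lower). The lines did not overlap in 12 members, and in 27.2% of all genes. The median member difference was 0.54 in EpiSC over LIF_serum (all genes 0.07), −0.28 in 2iSB_LIF over LIF_serum (all genes 0.02) and −0.53 in 2i_LIF over LIF_serum (all genes 0.02). These 3 comparisons share the LIF_serum arrays. The split in EpiSC depends on the scaling. With each array centred on its median instead, 18 members were higher and 5 lower, while the median of all genes was 0.61 in place of 0.07.

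**Figure D1:**
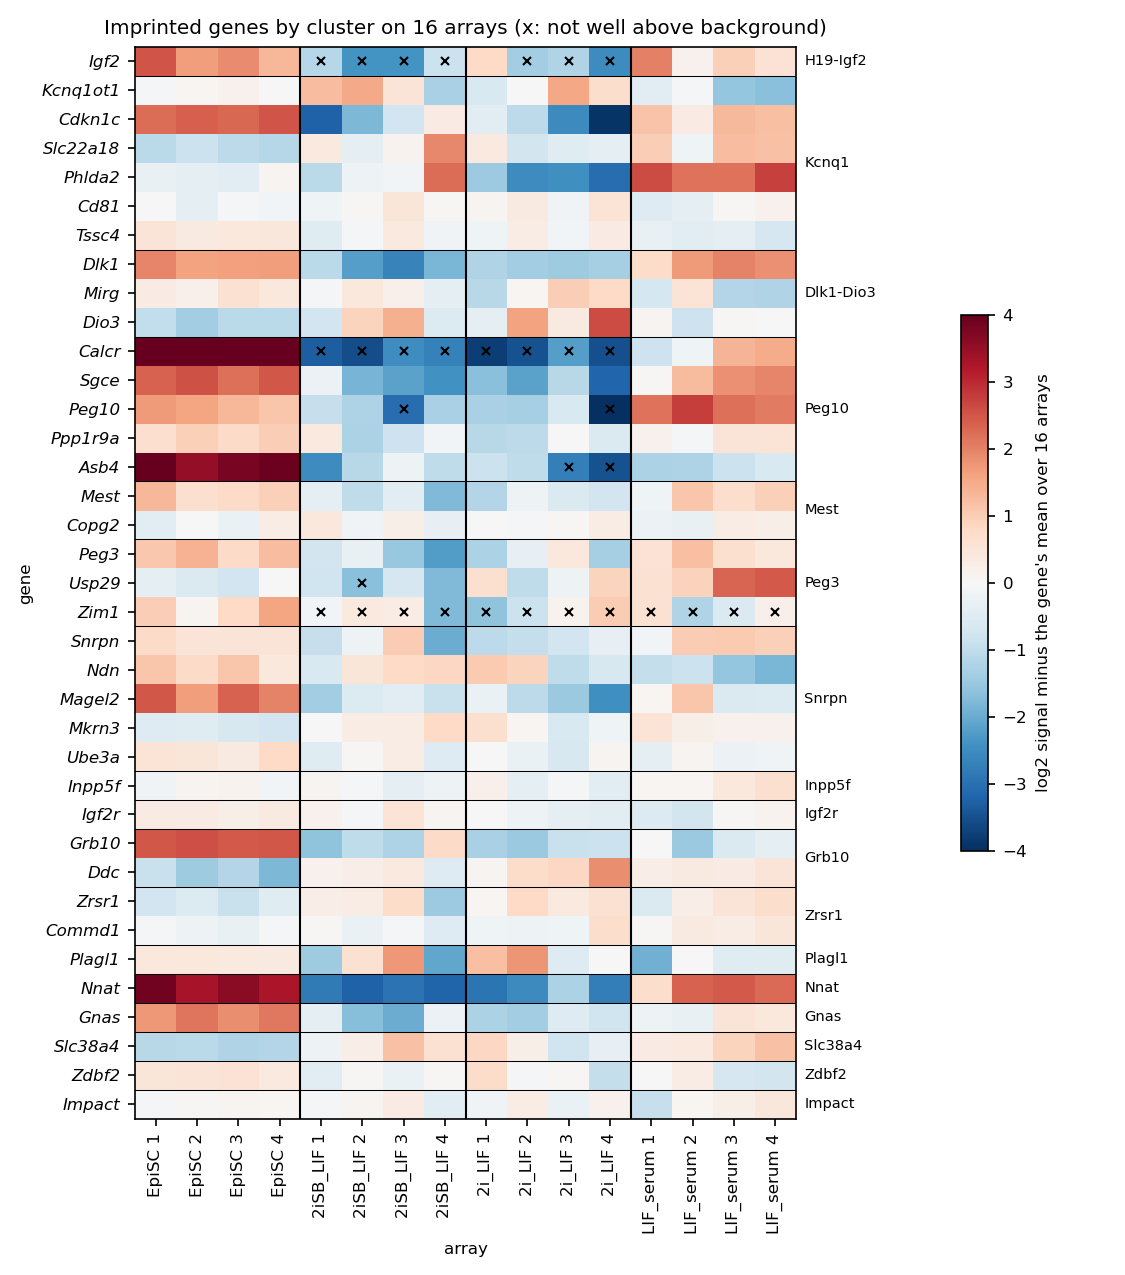
Level of the 37 tested imprinted genes on each of the 16 arrays, as log2 signal minus the gene's mean over all arrays (colour scale from −4 to 4), in rows ordered by cluster and with crosses where a gene was not well above background. The EpiSC columns, all from slide 2, are alike within most rows, with Asb4 (a 4.53-fold range) an exception. Rows such as Cdkn1c, Phlda2 and Plagl1 differ between lines of the same ground state group.

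EpiSC differed from the ground state groups in more members. Against 2iSB_LIF, 14 members were higher and 3 lower in EpiSC, 45.9% of the members, where 36.3% of all genes were called (20.1% higher and 16.2% lower), and 21 members did not overlap, against 54.2% of all genes. Against 2i_LIF, 16 were higher and 4 lower, 54.1% of the members, where 37.4% of all genes were called (20.6% higher and 16.8% lower), and 24 members did not overlap, against 55.2% of all genes. No member was called between the ground state groups. In 2iSB_LIF against 2i_LIF limma called 0 of 37 members, where 0.0838% of all genes were called (0.0129% higher and 0.0709% lower), and 3 members had an unadjusted p under 0.05. Over the 6 comparisons, 14 members were called in none: Cd81, Commd1, Copg2, Igf2r, Impact, Inpp5f, Kcnq1ot1, Mirg, Mkrn3, Plagl1, Tssc4, Ube3a, Zdbf2 and Zim1.

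By parental copy, 19 tested members are known as paternally expressed, 7 as maternally expressed and 11 as imprinted in some tissues or transcripts. In 2iSB_LIF against LIF_serum 1 paternally expressed member was higher and 9 lower (median −0.83), 0 maternally expressed members were higher and 2 lower (median −0.06), and 2 of the other 11 were lower. Of all genes 6.81% were higher and 13.3% lower. In 2i_LIF against LIF_serum 1 paternally expressed member was higher and 10 lower (median −1.32), 0 maternally expressed members were higher and 2 lower (median −0.09), and 2 of the other 11 were lower. Here 6.25% of all genes were higher and 12.1% lower. In EpiSC against LIF_serum 3 paternally expressed members were higher and 2 lower, 0 maternally expressed members were higher and 2 lower, and 4 of the other 11 were higher and 1 lower. These calls were 26.3%, 28.6% and 45.5% of the classes, where 33.6% of all genes were called (18% higher and 15.6% lower). No difference between the classes was tested.

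**Figure D2:**
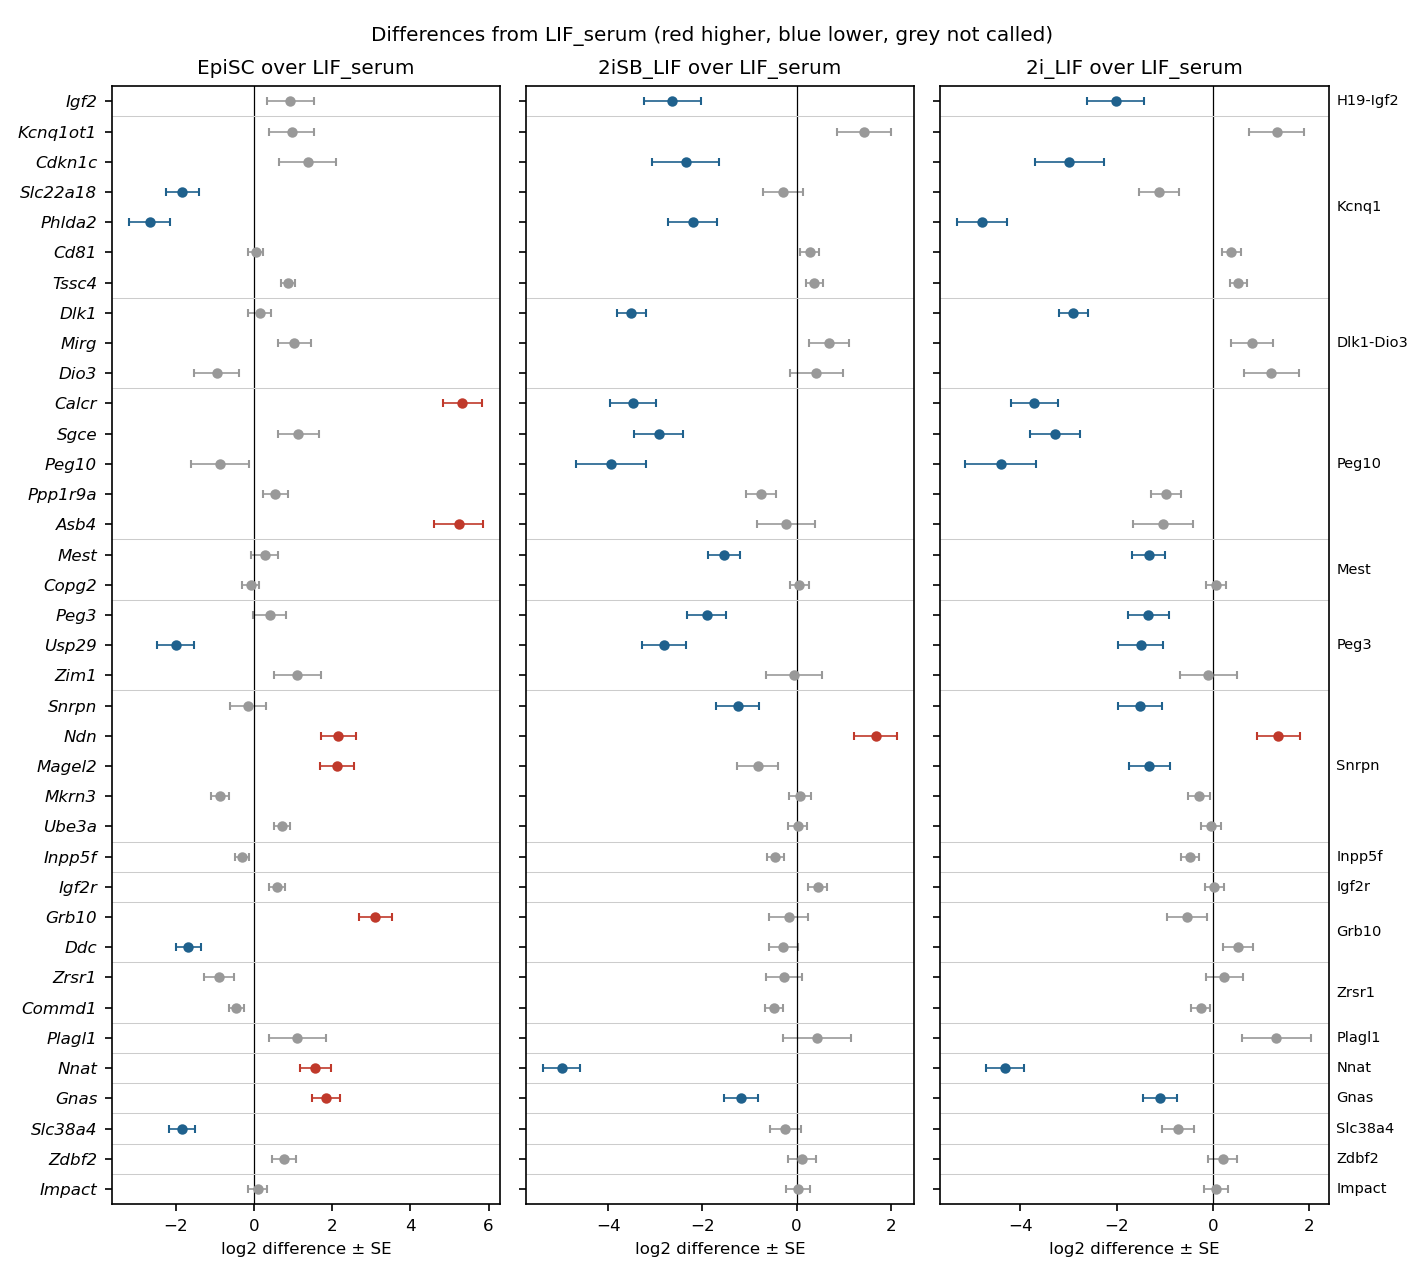
Log2 difference of each tested imprinted gene from LIF_serum, with its standard error, in EpiSC, 2iSB_LIF and 2i_LIF, by cluster (red higher, blue lower, grey not called). Nnat, Peg10, Dlk1, Calcr and Sgce lie far to the left in both ground state panels, and Calcr, Asb4 and Grb10 far to the right in the EpiSC panel.

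Nnat and Dlk1 separated the culture conditions without overlap between the ground state groups and LIF_serum. Nnat encodes neuronatin, a small membrane protein linked to calcium handling, is paternally expressed and lies alone in an intron of Blcap. Dlk1 encodes a paternally expressed transmembrane ligand of the Notch family that restrains adipocyte differentiation, at the start of the Dlk1-Dio3 cluster. The RefSeq promoter of Nnat (GRCm38.p6) is printed because the largest difference from LIF_serum in 2iSB_LIF was that of Nnat. Capitals mark CG, the dinucleotide at which imprints are methylated. It runs from 250 bases before the annotated start of the gene to the base before it, at chr2:157559828-157560077 (plus strand, 12 CG).
Nnat promoter: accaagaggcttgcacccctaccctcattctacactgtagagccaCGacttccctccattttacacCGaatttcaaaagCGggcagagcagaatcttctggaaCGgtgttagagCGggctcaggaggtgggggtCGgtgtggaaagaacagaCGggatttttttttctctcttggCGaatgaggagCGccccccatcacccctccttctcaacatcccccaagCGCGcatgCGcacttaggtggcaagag

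Nnat had 3.05, 2.49, 2.8 and 2.44 in EpiSC, against −3.65, −4.05, −3.77 and −4.01 in 2iSB_LIF, −3.74, −3.36, −2.08 and −3.59 in 2i_LIF, and −0.12, 1.55, 1.64 and 1.44 in LIF_serum. Every ground state line was below every LIF_serum line, and every EpiSC line was above them, with LIF_serum array 1 apart from the other LIF_serum arrays. Nnat was lower by 31.9-fold in 2iSB_LIF than in LIF_serum (log2 difference −4.99, SE 0.39, adjusted p = 7.1e-07). It was lower by 20-fold in 2i_LIF (log2 difference −4.32, SE 0.39, adjusted p = 2.9e-06). In EpiSC it was 2.96-fold higher than in LIF_serum (log2 difference 1.57, SE 0.39, adjusted p = 0.0035). A further probe for Nnat gave 1.55 in EpiSC and −5.17 in 2iSB_LIF, each over LIF_serum.

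Dlk1 had 1.73, 1.39, 1.42 and 1.46 in EpiSC, against −1.3, −2.41, −2.87 and −2.03 in 2iSB_LIF, −1.4, −1.61, −1.64 and −1.54 in 2i_LIF, and 0.51, 1.5, 1.78 and 1.63 in LIF_serum. The ground state lines did not overlap LIF_serum, whereas EpiSC and LIF_serum overlapped. Dlk1 was lower by 11.4-fold in 2iSB_LIF (log2 difference −3.51, SE 0.3, adjusted p = 1.8e-06) and by 7.49-fold in 2i_LIF (log2 difference −2.9, SE 0.3, adjusted p = 1.1e-05), each against LIF_serum. The other tested members of its cluster did not follow it. Mirg, a maternally expressed noncoding RNA that hosts microRNAs, had 3.77, 3.62, 4.05 and 3.86 in EpiSC, against 3.35, 3.85, 3.64 and 3.08 in 2iSB_LIF, 2.31, 3.52, 4.4 and 4.22 in 2i_LIF, and 2.72, 3.98, 2.24 and 2.23 in LIF_serum, and was called in no comparison. Dio3, the paternally expressed deiodinase that inactivates thyroid hormone, had −3.85, −4.27, −3.94 and −3.94 in EpiSC, against −3.64, −1.97, −1.45 and −3.41 in 2iSB_LIF, −3.22, −1.26, −2.51 and −0.26 in 2i_LIF, and −2.77, −3.68, −2.83 and −2.86 in LIF_serum. It was lower by 4.55-fold in EpiSC than in 2i_LIF (log2 difference −2.18, SE 0.57, adjusted p = 0.0045), where the groups did not overlap, and was not called against LIF_serum. Dio3os, a noncoding RNA antisense to it that is not among the 42, was lower in EpiSC (log2 difference −1.17) and higher in 2iSB_LIF (1.05) and 2i_LIF (1.58), each over LIF_serum. The cluster spans chr12:109452485-110281097 (GRCm38), 829 kb with 5 tested genes.

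Mirg carries 19 mature microRNAs in the RefSeq table, with 18 different seeds (bases 2 to 8, in capitals). The arrays measured the host transcript and not the microRNAs. The pair that shares a seed, GGUUGCC, and 3 of the others are shown because Mirg was well above background on all 16 arrays and called in no comparison, while Dlk1 in the same cluster was called in 4.
miR-453: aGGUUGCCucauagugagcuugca
miR-496a-5p: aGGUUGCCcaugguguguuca
miR-154-3p: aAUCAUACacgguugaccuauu
miR-369-3p: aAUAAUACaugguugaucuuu
miR-410-3p: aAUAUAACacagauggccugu

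The Peg10 cluster on chromosome 6 held the largest differences of any member in EpiSC. Its 5 tested members lie within chr6:3685678-5433022 (GRCm38), a span of 1747 kb. Sgce and Peg10 are paternally expressed neighbours: Sgce encodes epsilon-sarcoglycan, a membrane glycoprotein, and Peg10 a retrotransposon-derived protein required for the placenta. Calcr (the calcitonin receptor), Asb4 (a ubiquitin ligase adaptor) and Ppp1r9a (neurabin, an actin-binding protein) are known as maternally expressed in some tissues. All 5 were called higher in EpiSC than in 2iSB_LIF (all genes 20.1%) and than in 2i_LIF (all genes 20.6%). Dimmer probes for Asb4 and Ppp1r9a gave less than 2-fold there (log2 difference 0.54 and 0.42 over 2iSB_LIF, 0.59 and 0.57 over 2i_LIF). Of the 5, 3 were called lower in each ground state group than in LIF_serum (all genes 13.3% in 2iSB_LIF and 12.1% in 2i_LIF).

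Peg10 had −0.3, −0.44, −0.69 and −0.9 in EpiSC, against −2.95, −3.26, −5.07 and −3.32 in 2iSB_LIF, −3.32, −3.35, −2.63 and −7.14 in 2i_LIF, and 0.16, 0.76, 0.19 and 0.06 in LIF_serum. The 4 LIF_serum lines were above the 4 EpiSC lines, which were above all 8 ground state lines, and 2iSB_LIF array 3 and 2i_LIF array 4 were not well above background. Peg10 was lower by 15.4-fold in 2iSB_LIF (log2 difference −3.95, SE 0.74, adjusted p = 0.001) and by 21.2-fold in 2i_LIF (log2 difference −4.41, SE 0.74, adjusted p = 5.3e-04) than in LIF_serum. Without 2i_LIF array 4 the 2i_LIF difference of Peg10 was −3.4, 10.6-fold (adjusted p = 6.7e-05). Sgce had 2.5, 2.68, 2.34 and 2.61 in EpiSC, against −0.11, −1.73, −2.01 and −2.29 in 2iSB_LIF, −1.54, −2, −0.98 and −3.05 in 2i_LIF, and 0.18, 1.39, 1.95 and 2.08 in LIF_serum. The level of Sgce was lower by 7.64-fold in 2iSB_LIF (log2 difference −2.93, SE 0.52, adjusted p = 6.3e-04) and by 9.79-fold in 2i_LIF (log2 difference −3.29, SE 0.52, adjusted p = 3.1e-04) than in LIF_serum, and its EpiSC difference from LIF_serum was not called (log2 difference 1.13, SE 0.52, adjusted p = 0.077).

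Calcr had 1.66, 1.94, 2.62 and 2.27 in EpiSC, against −6.96, −7.23, −6.16 and −6.38 in 2iSB_LIF, −7.45, −7.15, −5.88 and −7.19 in 2i_LIF, and −4.49, −3.84, −2.3 and −2.19 in LIF_serum. It was well above background on every EpiSC and LIF_serum array and on 0 of the 8 ground state arrays. In EpiSC it was 40.1-fold higher than in LIF_serum (log2 difference 5.33, SE 0.49, adjusted p = 4.7e-07). It was at least 5.31-fold lower in 2iSB_LIF and at least 4.05-fold lower in 2i_LIF than in LIF_serum (adjusted p = 1.1e-04 and 7.4e-05), and at least 213-fold higher in EpiSC than in 2iSB_LIF and at least 162-fold higher than in 2i_LIF (adjusted p = 1.3e-09 and 9.8e-10). Asb4 had 3.42, 1.24, 1.54 and 1.64 in EpiSC, against −4.8, −3.38, −2.46 and −3.29 in 2iSB_LIF, −3.14, −3.28, −5 and −5.75 in 2i_LIF, and −3.55, −3.5, −3.14 and −2.87 in LIF_serum. Here EpiSC stood apart from the 3 other groups, which overlapped, with a 37.4-fold difference from LIF_serum (log2 difference 5.23, SE 0.62, adjusted p = 6.7e-06). A dimmer probe for Asb4 gave a log2 difference of 0.61. Ppp1r9a had 1.54, 1.83, 1.63 and 1.85 in EpiSC, against 1.27, −0.39, 0.04 and 0.76 in 2iSB_LIF, −0.24, −0.18, 0.9 and 0.3 in 2i_LIF, and 1.04, 0.81, 1.4 and 1.41 in LIF_serum, and was called only against the ground state, at 2.44-fold over 2iSB_LIF (log2 difference 1.29, SE 0.32, adjusted p = 0.0035) and 2.86-fold over 2i_LIF (log2 difference 1.52, SE 0.32, adjusted p = 0.001). The 2iSB_LIF comparison of Ppp1r9a lost its call with a passage term and with the mean over its probes.

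Genes of the same span that are not among the 42 moved as well. The 42 do not hold every imprinted gene, so these others are not to be read as unimprinted. All 7 others tested there (Tfpi2, Gng11, Bet1, Col1a2, Casd1, Pon3 and Pon2) were called higher in EpiSC than in LIF_serum (all genes 18%). Of them 4 were called lower in 2iSB_LIF (all genes 13.3%) and 3 in 2i_LIF (all genes 12.1%). Tfpi2, a protease inhibitor, was at least 22.5-fold higher in EpiSC than in LIF_serum. Col1a2, the fibroblast collagen gene among the marker list, lies between them and had a log2 difference of 3.20 in EpiSC, −7.20 in 2iSB_LIF and −6.94 in 2i_LIF over LIF_serum. Between conditions the fibroblast markers differed in the same directions as the called members of this cluster. They were higher in EpiSC (15 of 19 called, all genes 18%). In 2iSB_LIF 13 of 19 were lower (all genes 13.3%) and in 2i_LIF 12 of 19 (all genes 12.1%). Between the LIF_serum lines the markers were higher on the LS arrays. There Calcr, Sgce, Asb4 and Ppp1r9a ran the other way, higher on the LSFF arrays, as were 41.7% of all genes, and Peg10 overlapped. The part of the markers in the EpiSC differences was not tested.

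**Figure D3:**
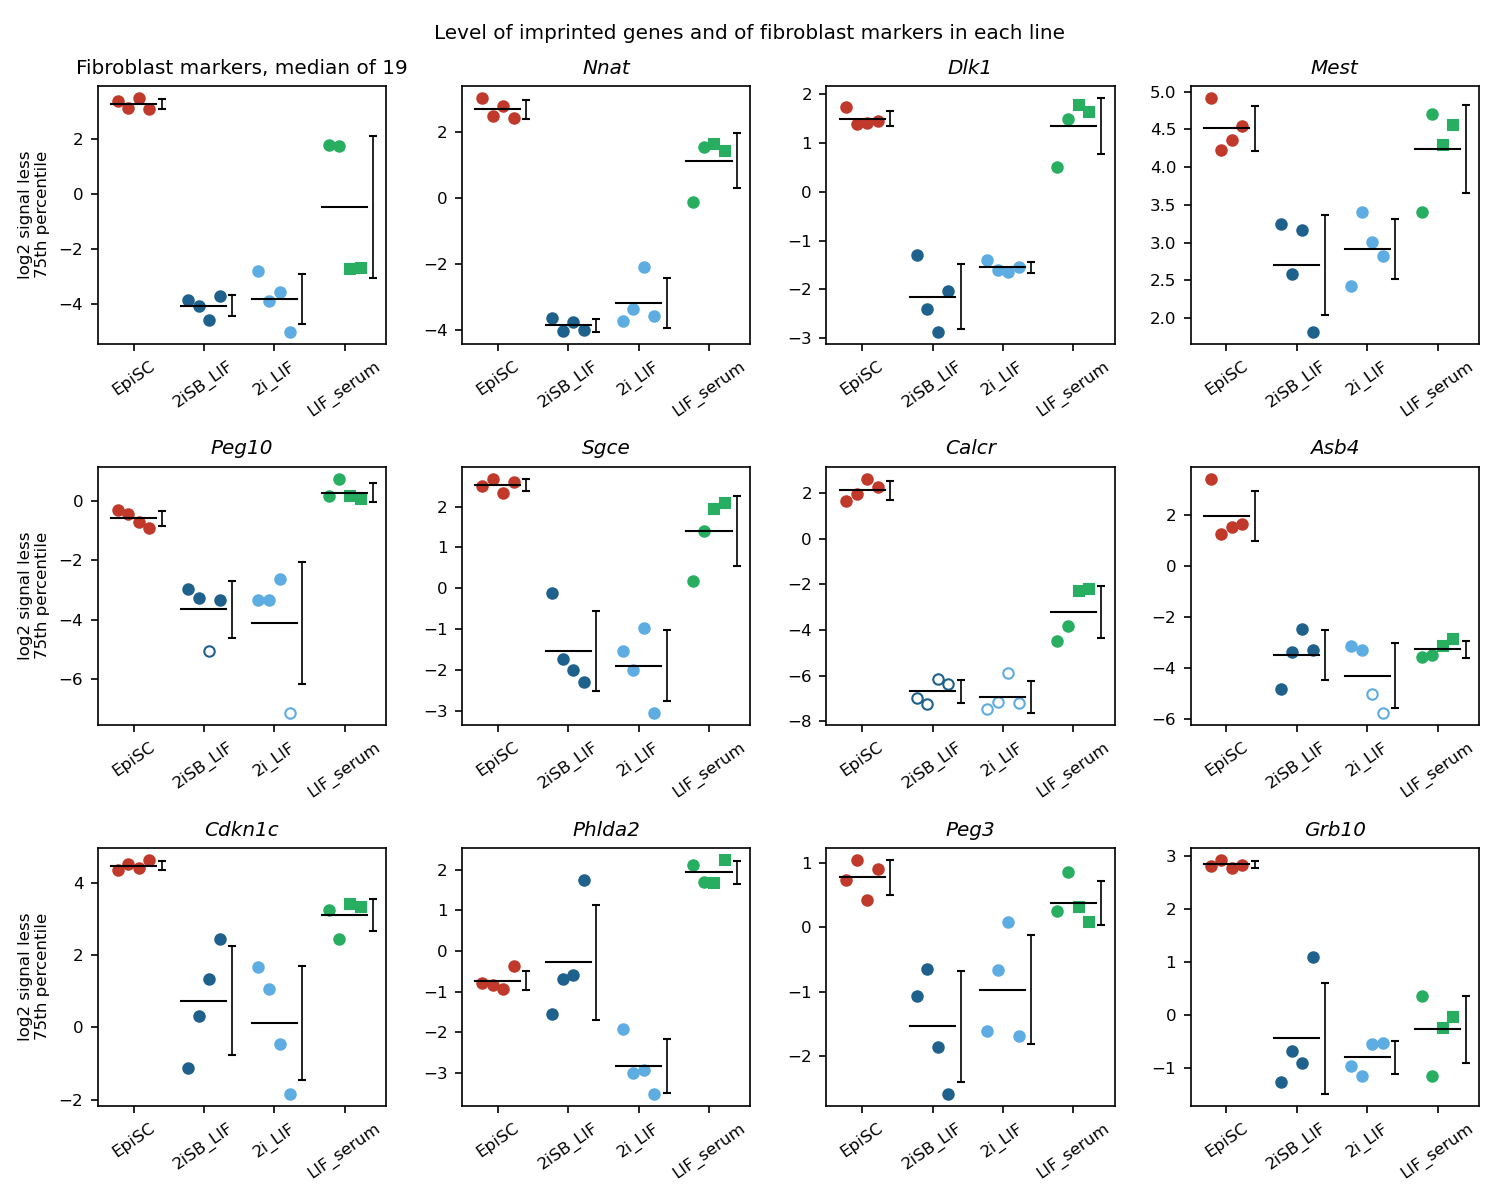
Level of the median fibroblast marker and of 11 imprinted genes in each line (log2 signal less the array's 75th percentile), as points with the group mean (horizontal bar) and SD (vertical bar). Squares are the LSFF arrays of LIF_serum and hollow points are not well above background. The fibroblast markers split LIF_serum into 2 higher and 2 lower arrays. Nnat, Dlk1, Mest, Peg10 and Sgce were above the ground state lines in all 4 LIF_serum lines. The part of the markers in these levels was not tested.

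Against the LSFF arrays alone, Nnat, Dlk1, Peg10, Sgce and Calcr were called lower in both ground state groups. The fibroblast markers were lower on the LSFF arrays than on the LS arrays. Their median on the LSFF arrays (−2.71 and −2.68) was still above that of every ground state array (highest −2.81), while their summed level was not. Markers of extra-embryonic cells ran the other way between the LIF_serum lines. Of 12 listed, 10 were tested, and their summed level in multiples of the 75th percentile was 424 to 514 in EpiSC, 82.2 to 127 in 2iSB_LIF, 107 to 135 in 2i_LIF, 221 and 240 on the LS arrays and 476 and 477 on the LSFF arrays. This sum was thus lower in both ground state groups than in EpiSC and LIF_serum. Their median level was as low on the LS arrays (−2.43 and −2.09) as in 2iSB_LIF (−1.91 to −0.78) and 2i_LIF (−2.3 to −1.36). It was −0.64 to 0.88 in EpiSC and −0.61 and −0.55 on the LSFF arrays. Against LIF_serum 2 of 10 were called higher in EpiSC, 2 higher and 4 lower in 2iSB_LIF and 3 lower in 2i_LIF. These calls were 20%, 60% and 30% of the list, where 33.6%, 20.1% and 18.3% of all genes were called. The part of either marker list in the differences of the imprinted genes was not tested. In 2iSB_LIF over LSFF the log2 difference was −5.40 for Nnat, −3.86 for Dlk1, −3.78 for Peg10, −3.55 for Sgce and −4.44 for Calcr. In 2i_LIF over LSFF it was −4.73 for Nnat, −3.26 for Dlk1, −4.24 for Peg10, −3.91 for Sgce and −4.67 for Calcr. Over the LS arrays alone, where the markers were high, Nnat was at −4.58 in 2iSB_LIF and −3.91 in 2i_LIF, and Dlk1 at −3.16 and −2.55. With LSFF as the only LIF_serum lines, 15 members were called in 2iSB_LIF and 16 in 2i_LIF, where 23.7% and 23% of all genes were called. With LS as the only ones, 10 and 7 members were called, where 15.7% and 13.9% of all genes were. In 16 members (43.2%) both LSFF lines were above both LS lines, in 6 (16.2%) both were below, and in 15 (40.5%) they overlapped, against 41.7%, 34.6% and 23.6% of all genes. The LS arrays lay on slide 1 and the LSFF arrays on slide 2, so the code and the slide cannot be told apart. Within slide 1 the 2iSB_LIF difference from LIF_serum was −4.62 for Nnat, −2.92 for Dlk1 and −3.64 for Peg10, and within slide 2, which held 1 such line, −5.30, −4.58 and −5.20. Sgce lost its call within slide 1, at −2.16 in 2iSB_LIF (adjusted p = 0.076) and −2.29 in 2i_LIF (adjusted p = 0.066). Within slide 1, 5 members were called in each ground state group, where 11.3% of all genes were called in 2iSB_LIF and 10.9% in 2i_LIF.

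The Kcnq1 cluster on chromosome 7 holds growth restrainers that are expressed from the maternal copy, silenced on the paternal copy by the noncoding RNA Kcnq1ot1. Cdkn1c encodes the cell cycle inhibitor p57, Phlda2 a regulator of placental growth, and Slc22a18 a membrane transporter. Cdkn1c had 4.35, 4.51, 4.39 and 4.63 in EpiSC, against −1.12, 0.32, 1.34 and 2.43 in 2iSB_LIF, 1.68, 1.06, −0.45 and −1.83 in 2i_LIF, and 3.24, 2.44, 3.4 and 3.32 in LIF_serum. Both ground state groups had less of it than LIF_serum, lower by 5.13-fold in 2iSB_LIF (log2 difference −2.36, SE 0.72, adjusted p = 0.021) and by 7.91-fold in 2i_LIF (log2 difference −2.98, SE 0.72, adjusted p = 0.0063), with ground state lines that ran over several log2 units. Without LIF_serum array 3, 2iSB_LIF array 1 (a difference of −1.74) or 2iSB_LIF array 2 the 2iSB_LIF call was lost, and without 2i_LIF array 4 the 2i_LIF difference was −2.34. Over the LS arrays alone neither call held, nor within slide 1. With a passage term the 2iSB_LIF call was lost, at −1.70 (adjusted p = 0.25).

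Phlda2 had −0.78, −0.83, −0.93 and −0.38 in EpiSC, against −1.56, −0.69, −0.59 and 1.75 in 2iSB_LIF, −1.93, −3, −2.93 and −3.52 in 2i_LIF, and 2.12, 1.71, 1.68 and 2.25 in LIF_serum. It was highest in LIF_serum, apart from 2iSB_LIF array 4, which fell among the LIF_serum lines. Against LIF_serum it was lower by 6.36-fold in EpiSC (log2 difference −2.67, SE 0.52, adjusted p = 6.0e-04), by 4.64-fold in 2iSB_LIF (log2 difference −2.21, SE 0.52, adjusted p = 0.005) and by 27.6-fold in 2i_LIF (log2 difference −4.79, SE 0.52, adjusted p = 1.7e-05). Phlda2 was also the 1 member whose ground state groups did not overlap, higher in 2iSB_LIF than in 2i_LIF by 2.57 (SE 0.52), with an unadjusted p of 2.0e-04 and an adjusted p of 0.1, so it was not called. Over all genes 2.15% had no overlap in that comparison. Without 2iSB_LIF array 1 the difference in Phlda2 was called. Without 2iSB_LIF array 4 the 2iSB_LIF difference from LIF_serum was −2.89. That call was lost within slide 1 (−2.09, adjusted p = 0.16) and with a passage term (−1.36, adjusted p = 0.15).

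Slc22a18 had −1.47, −1.27, −1.45 and −1.53 in EpiSC, against −0.02, −0.75, −0.26 and 1.51 in 2iSB_LIF, 0, −1.15, −0.88 and −0.8 in 2i_LIF, and 0.59, −0.56, 0.84 and 0.78 in LIF_serum. EpiSC lines were below every other line, and Slc22a18 was lower by 3.59-fold in EpiSC than in LIF_serum (log2 difference −1.84, SE 0.42, adjusted p = 0.0019) and by 2.93-fold than in 2iSB_LIF (log2 difference −1.55, SE 0.42, adjusted p = 0.0059). The call against 2iSB_LIF was lost with median scaling. Kcnq1ot1 had −0.02, 0.14, 0.24 and 0.05 in EpiSC, against 1.32, 1.59, 0.6 and −1.23 in 2iSB_LIF, −0.55, 0.07, 1.61 and 0.76 in 2i_LIF, and −0.37, 0, −1.47 and −1.6 in LIF_serum. The groups overlapped, and its differences over LIF_serum of 0.96 in EpiSC, 1.43 in 2iSB_LIF and 1.33 in 2i_LIF were not called. Cd81 and Tssc4, imprinted in placenta, had group means of 6.09 to 6.48 and 2.66 to 3.53 and were not called.

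Igf2, the paternally expressed insulin-like growth factor that drives fetal growth, was close to the background floor in the ground state. It had −1.95, −2.8, −2.57 and −3.13 in EpiSC, against −5.61, −6.87, −6.87 and −5.33 in 2iSB_LIF, −3.68, −5.85, −5.68 and −6.99 in 2i_LIF, and −2.44, −4.3, −3.5 and −3.89 in LIF_serum, and was well above background on all EpiSC and LIF_serum arrays, on 0 of the 2iSB_LIF arrays and on 1 of the 2i_LIF arrays. It was at least 3.66-fold lower in 2iSB_LIF than in LIF_serum (adjusted p = 0.004) and was called lower in 2i_LIF (log2 difference −2.02, SE 0.6, adjusted p = 0.02), where 3 of the 4 values are near background and no fold is given. It was at least 6.93-fold higher in EpiSC than in 2iSB_LIF (adjusted p = 1.4e-04). With the normexp background correction neither ground state call against LIF_serum remained. The 2iSB_LIF call was also lost within slide 1 and with a passage term. In all, the 2i_LIF call was lost in 8 of 21 alternatives, among them LS or LSFF arrays alone and the removal of LIF_serum array 1, 2i_LIF array 2 or 2i_LIF array 4, and without 2i_LIF array 1 the difference was −2.64. Igf2r, the maternally expressed receptor that clears IGF2, had group means of 2.80 in EpiSC, 2.67 in 2iSB_LIF, 2.26 in 2i_LIF and 2.22 in LIF_serum and was not called.

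Mest, a paternally expressed hydrolase-like protein of the growing mesoderm, was lower in the ground state, and its neighbour Copg2, a coatomer subunit, was called in no comparison. Mest had 4.92, 4.23, 4.36 and 4.55 in EpiSC, against 3.25, 2.59, 3.17 and 1.82 in 2iSB_LIF, 2.43, 3.4, 3.01 and 2.83 in 2i_LIF, and 3.41, 4.7, 4.3 and 4.56 in LIF_serum. Its level was lower by 2.91-fold in 2iSB_LIF (log2 difference −1.54, SE 0.34, adjusted p = 0.0031) and by 2.51-fold in 2i_LIF (log2 difference −1.33, SE 0.34, adjusted p = 0.0083) than in LIF_serum. The groups did not overlap, but LIF_serum array 1 and 2i_LIF array 2 were almost level. Over the LS arrays alone the 2i_LIF call of Mest was lost, and within slide 1 both ground state calls were. The other 2 Mest probes gave −1.72 and −1.52 in 2iSB_LIF. Copg2 had group means of 2.88 to 3.03. Mest hosts miR-335 in an intron (chr6:30741314-30741336 for the 5p arm, plus strand), which was not measured.
miR-335-5p: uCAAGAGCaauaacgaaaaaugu
miR-335-3p: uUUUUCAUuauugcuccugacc

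Peg3 and Usp29, the zinc finger gene and the deubiquitinase gene of the Peg3 cluster, are paternally expressed and are transcribed away from each other from annotated starts 97 bases apart. The bases between these starts, chr7:6730463-6730558 (GRCm38.p6, plus strand, 3 CG, in capitals), are shown because both genes were lower in the ground state.
Peg3-Usp29 interval: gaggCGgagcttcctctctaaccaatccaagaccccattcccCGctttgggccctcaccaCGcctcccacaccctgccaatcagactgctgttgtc

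Peg3 had 0.74, 1.05, 0.42 and 0.9 in EpiSC, against −1.07, −0.64, −1.85 and −2.58 in 2iSB_LIF, −1.61, −0.66, 0.09 and −1.68 in 2i_LIF, and 0.25, 0.86, 0.31 and 0.09 in LIF_serum. Its level was lower by 3.76-fold in 2iSB_LIF (log2 difference −1.91, SE 0.42, adjusted p = 0.0031) and by 2.53-fold in 2i_LIF (log2 difference −1.34, SE 0.42, adjusted p = 0.026) than in LIF_serum, and EpiSC and LIF_serum overlapped. The 2i_LIF call of Peg3 was lost in 6 of 22 alternatives, including LS or LSFF arrays alone and the removal of LIF_serum array 2, 2i_LIF array 1 or 2i_LIF array 4. Within slide 1 the 2iSB_LIF call of Peg3 was lost as well. Usp29 had −3.84, −4.02, −4.21 and −3.48 in EpiSC, against −4.24, −5.14, −4.12 and −5.23 in 2iSB_LIF, −2.81, −4.47, −3.66 and −2.56 in 2i_LIF, and −2.84, −2.52, −1.13 and −1.01 in LIF_serum. Usp29 was lower by 7.01-fold in 2iSB_LIF (log2 difference −2.81, SE 0.47, adjusted p = 4.5e-04), by 2.82-fold in 2i_LIF (log2 difference −1.5, SE 0.47, adjusted p = 0.026) and, unlike Peg3, by 4.03-fold in EpiSC (log2 difference −2.01, SE 0.47, adjusted p = 0.0023). The LSFF lines lay above the LS lines, and over the LS lines alone or with normexp Usp29 was not called in EpiSC or in 2i_LIF. Its 2i_LIF call was lost in 11 of 21 alternatives, including the removal of LIF_serum array 3 or 4 or of 2i_LIF array 2 or 3. Zim1, a maternally expressed zinc finger gene next to Peg3, was well above background on all 4 EpiSC arrays and on 0 of the other 12, and was not called.

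The Snrpn cluster, the mouse counterpart of the human Prader-Willi and Angelman region, did not move as a block. Snrpn encodes a splicing protein, Ndn and Magel2 are MAGE family genes, Mkrn3 a ring finger gene, and Ube3a the ubiquitin ligase that is maternally expressed in neurons. Ndn had 1.17, 0.82, 1.16 and 0.49 in EpiSC, against −0.55, 0.54, 0.87 and 0.9 in 2iSB_LIF, 1.1, 0.95, −0.97 and −0.59 in 2i_LIF, and −0.88, −0.81, −1.48 and −1.78 in LIF_serum. It was the 1 member higher in all 3 groups than in LIF_serum, by 4.43-fold in EpiSC (log2 difference 2.15, SE 0.45, adjusted p = 0.001), 3.2-fold in 2iSB_LIF (log2 difference 1.68, SE 0.45, adjusted p = 0.011) and 2.57-fold in 2i_LIF (log2 difference 1.36, SE 0.45, adjusted p = 0.034). Neither ground state call held over the LS arrays alone, within slide 1 or with a passage term. The 2i_LIF call was also lost without LIF_serum array 3 or 4 or 2i_LIF array 1 or 2.

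Magel2 had 0.79, −0.04, 0.65 and 0.26 in EpiSC, against −3.11, −2.25, −2.17 and −2.59 in 2iSB_LIF, −1.99, −2.76, −3.18 and −4.16 in 2i_LIF, and −1.64, −0.61, −2.28 and −2.27 in LIF_serum. All EpiSC lines were above all others. It was higher in EpiSC by 4.34-fold than in LIF_serum (log2 difference 2.12, SE 0.43, adjusted p = 8.7e-04) and lower by 2.5-fold in 2i_LIF (log2 difference −1.32, SE 0.43, adjusted p = 0.032). The 2i_LIF call of Magel2 was lost with normexp, within slide 1, over the LSFF arrays alone and without LIF_serum array 1 or 2 or 2i_LIF array 3 or 4. Snrpn had 3.98, 3.74, 3.73 and 3.74 in EpiSC, against 2.29, 3.01, 4.24 and 1.24 in 2iSB_LIF, 2.16, 2.28, 2.44 and 2.88 in 2i_LIF, and 3.11, 4.23, 4.28 and 4.16 in LIF_serum. Snrpn was lower by 2.84-fold in 2i_LIF (log2 difference −1.51, SE 0.46, adjusted p = 0.024) and by 2.38-fold in 2iSB_LIF (log2 difference −1.25, SE 0.46, adjusted p = 0.0496). In 2iSB_LIF array 3 was among the LIF_serum lines, and the call held in 7 of 22 alternatives. It was lost in 14, including the removal of any of LIF_serum arrays 2, 3 and 4 or 2iSB_LIF arrays 1, 2 and 4. On slide 2 alone, with 1 line in 2iSB_LIF, the difference was 0.01. The 2i_LIF call of Snrpn was lost in 8 of 22, with median scaling, within slide 1, over the LS arrays alone and without LIF_serum array 2, 3 or 4 or 2i_LIF array 1 or 2. Mkrn3 and Ube3a were not called.

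Grb10, an adaptor that dampens insulin and IGF signalling and is maternally expressed outside the brain, had 2.82, 2.93, 2.78 and 2.83 in EpiSC, against −1.26, −0.68, −0.89 and 1.09 in 2iSB_LIF, −0.96, −1.14, −0.55 and −0.52 in 2i_LIF, and 0.36, −1.14, −0.24 and −0.04 in LIF_serum. The EpiSC lines lay close together and above every other line, by 8.6-fold over LIF_serum (log2 difference 3.1, SE 0.42, adjusted p = 2.1e-05), 9.7-fold over 2iSB_LIF (log2 difference 3.28, SE 0.42, adjusted p = 8.4e-06) and 12.4-fold over 2i_LIF (log2 difference 3.63, SE 0.42, adjusted p = 3.0e-06). Its neighbour Ddc, the dopa decarboxylase gene that is paternally expressed in heart, had 1.65, 1.13, 1.35 and 0.74 in EpiSC, against 2.71, 2.81, 2.92 and 2.01 in 2iSB_LIF, 2.64, 3.27, 3.38 and 4.39 in 2i_LIF, and 2.81, 2.9, 2.85 and 3.04 in LIF_serum, the opposite order. It was lower by 3.2-fold in EpiSC than in LIF_serum (log2 difference −1.68, SE 0.31, adjusted p = 3.6e-04), but a dimmer probe for Ddc gave 0.75, and the mean over its probes was not called.

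Gnas, which encodes the stimulatory G protein alpha subunit and other transcripts imprinted in opposite directions, had 6.48, 6.86, 6.59 and 6.83 in EpiSC, against 4.38, 3.02, 2.74 and 4.49 in 2iSB_LIF, 3.48, 3.35, 4.22 and 3.95 in 2i_LIF, and 4.52, 4.43, 5.26 and 5.16 in LIF_serum. It was higher by 3.59-fold in EpiSC than in LIF_serum (log2 difference 1.84, SE 0.36, adjusted p = 6.3e-04). It was lower by 2.28-fold in 2iSB_LIF (log2 difference −1.19, SE 0.36, adjusted p = 0.021) and 2.14-fold in 2i_LIF (log2 difference −1.1, SE 0.36, adjusted p = 0.034), calls that were lost over the LS arrays alone and without LIF_serum array 3 or 4. The 2iSB_LIF call of Gnas was also lost without 2iSB_LIF array 2 or 3, and the 2i_LIF call with median scaling and without 2i_LIF array 1 or 2. Both were lost within slide 1 and with a passage term, which left the 2iSB_LIF difference at −0.35 (adjusted p = 0.54). A probe for another Gnas transcript gave 1.94 in EpiSC and −2.55 in 2iSB_LIF over LIF_serum. Slc38a4, a paternally expressed amino acid transporter important in the placenta, had 1.87, 1.9, 1.78 and 1.8 in EpiSC, against 2.76, 3.25, 4.14 and 3.59 in 2iSB_LIF, 3.8, 3.22, 2.17 and 2.64 in 2i_LIF, and 3.31, 3.37, 3.87 and 4.15 in LIF_serum. Its EpiSC lines were below every other line, and it was lower by 3.58-fold in EpiSC than in LIF_serum (log2 difference −1.84, SE 0.33, adjusted p = 3.2e-04). Zrsr1, a paternally expressed splicing factor gene in an intron of Commd1, had 0.72, 0.94, 0.6 and 1.02 in EpiSC, against 1.75, 1.78, 2.24 and 0.05 in 2iSB_LIF, 1.58, 2.3, 1.88 and 2.1 in 2i_LIF, and 0.92, 1.76, 2.01 and 2.2 in LIF_serum. It was lower by 2.21-fold in EpiSC than in 2i_LIF (log2 difference −1.15, SE 0.39, adjusted p = 0.021). That call was lost with median scaling, with a passage term and without EpiSC array 3 or 2i_LIF array 2.

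Igf2r is shown beside Nnat as a CG-rich promoter of a member that was not called in any comparison, at chr17:12769707-12769956 (GRCm38.p6, minus strand, 27 CG, in capitals).
Igf2r promoter: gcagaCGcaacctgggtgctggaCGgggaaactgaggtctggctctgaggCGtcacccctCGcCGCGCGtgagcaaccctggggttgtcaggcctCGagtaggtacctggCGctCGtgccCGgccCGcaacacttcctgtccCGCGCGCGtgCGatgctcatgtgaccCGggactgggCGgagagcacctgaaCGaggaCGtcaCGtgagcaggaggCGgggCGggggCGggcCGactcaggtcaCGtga

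Promoter windows of 300 bases were found in the RefSeq table for 33 tested members, 53 windows in all. They held a median of 15 CG, against 7 over all 32851 windows. The hexamer TGCCGC, the core of the ZFP57 motif, was searched on both strands and was present in 12 of the 53 windows, of 11 members, and in 11.6% of all windows. Overlapping windows of Mest are counted separately. The hexamer itself holds a CG and the members' windows were richer in CG, so the shares are not like for like, and no difference was tested. Control regions often lie away from promoters, and a match is not a bound site.

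Lines of either ground state group, and also of LIF_serum, differed more in these genes than in the median gene. The median SD between the 4 lines, over members well above background on all 4 arrays, was 0.18 in EpiSC (all genes 0.16), 0.66 in 2iSB_LIF (0.32), 0.53 in 2i_LIF (0.34) and 0.46 in LIF_serum (0.27). In 2iSB_LIF 18 of 32 members lay above the 75th percentile of all genes' SDs, in 2i_LIF 17 of 32, in LIF_serum 18 of 36 and in EpiSC 13 of 37. Within 2iSB_LIF 11 of 32 members spanned 2 or more log2 units and within 2i_LIF 8 of 32, against 1 of 36 in LIF_serum and 1 of 37 in EpiSC. The share of all genes with such a range was not counted. The widest in 2iSB_LIF were Plagl1 (a 13.8-fold range between lines), Cdkn1c (11.7-fold) and Phlda2 (9.92-fold), and in 2i_LIF Cdkn1c (11.4-fold) and Dio3 (7.78-fold). All EpiSC lines lay on slide 2, whereas every other group spans both slides and LIF_serum also both codes, so slide differences enter only the other SDs. Over the 3 lines on slide 1, the median SD was 0.64 in 2iSB_LIF (all genes 0.25) and 0.5 in 2i_LIF (0.26).

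Plagl1, a paternally expressed zinc finger transcription factor, had 3.33, 3.31, 3.28 and 3.25 in EpiSC, against 1.49, 3.51, 4.62 and 0.83 in 2iSB_LIF, 4.11, 4.66, 2.38 and 2.9 in 2i_LIF, and 0.97, 2.91, 2.43 and 2.42 in LIF_serum. It was even in EpiSC and differed by several log2 units between 2iSB_LIF lines. No single order of lines held for all genes. Within 2iSB_LIF array 4 was the highest for Phlda2, Cdkn1c and Slc22a18 and the lowest for Plagl1, Snrpn, Kcnq1ot1 and Zrsr1. Plagl1, Snrpn and Zrsr1 nevertheless ranked the 2iSB_LIF lines alike, as did Cdkn1c and Phlda2. In 2i_LIF array 4 was the highest for Dio3 and Ddc and the lowest for Cdkn1c, Phlda2 and Sgce, and it was the 1 array of that group on slide 2. Each line has 1 array, so differences between lines and between hybridisations cannot be told apart.

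**Figure D4:**
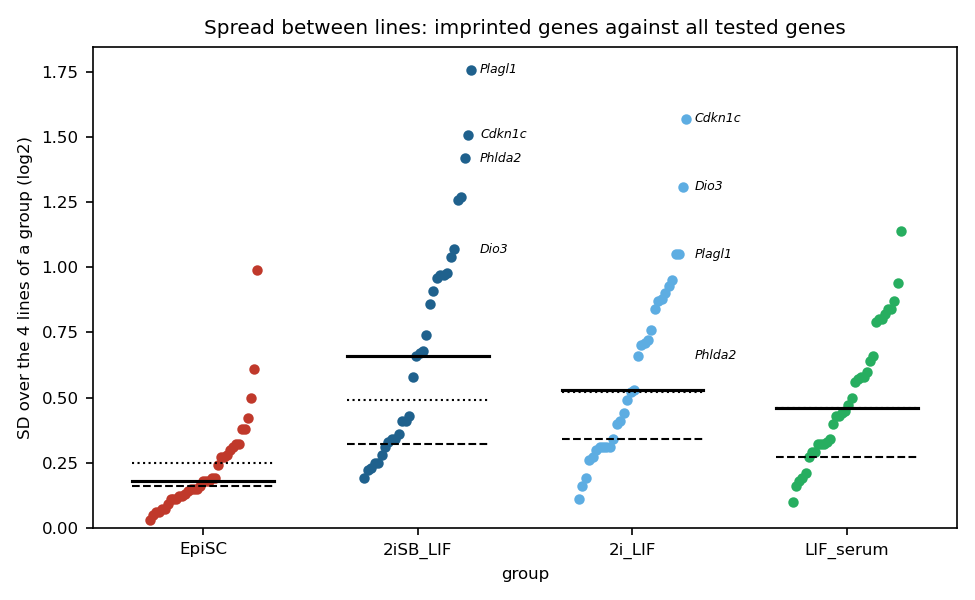
SD over the 4 lines of each group for each imprinted gene well above background there (points), with the median over these genes (solid line) and the median (dashed) and 75th percentile (dotted) over all tested genes. The points reach higher in the ground state groups, where Plagl1, Cdkn1c, Phlda2 and Dio3 are named, and the EpiSC points, all from slide 2, lie low.

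Genes that hold or change imprints were read beside the members. Of 20 tested, 1 was higher and 6 lower in EpiSC than in LIF_serum (35% called, all genes 33.6%). In 2iSB_LIF 0 were higher and 3 lower (15%, all genes 20.1%). In 2i_LIF 0 were higher and 3 lower (15%, all genes 18.3%). Dppa3, which shields maternal methylation in the zygote, was at least 545-fold lower in EpiSC than in LIF_serum. Dnmt3l, the cofactor of de novo methylation, had log2 differences of −8.50 in EpiSC, −3.28 in 2iSB_LIF and −3.30 in 2i_LIF. Zfp57 had a log2 difference of −1.39 in EpiSC (adjusted p = 4.2e-04) and of 0.92 and 0.93 in 2iSB_LIF and 2i_LIF, which were not called. Dnmt3b, a de novo methyltransferase, was lower in 2iSB_LIF (log2 difference −2.17) and 2i_LIF (−3.04) and not called in EpiSC.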

How the data were processed

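RNA from 16 lines, 4 in each group, was read on 16 arrays lying on 2 slides, and groups, line numbers and passages were taken from the labels. Per the file headers, the authors' scanner files hold intensity values from Agilent Feature Extraction 10.7.1.1, with a processed signal that is background-subtracted and not normalized between arrays. The authors also deposited log2 values for 42316 of the 55681 probes, made with limma and Feature Extraction per the submitters' processing notes. How they were normalized was not stated by the labels or headers, and their column medians are 7.51 to 7.58. The deposited values served as an alternative.

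Control spots (3671 of 62976) and outlier spots (100 to 321 per array) were left out, and no probe was saturated. Probes were named through RefSeq accessions and the GRCm38.p6 annotation, which named 27656 probes, while the array header names build mm9. The processed signal was scaled to each array's 75th percentile and log2 transformed. A probe entered the tests when all 4 lines of some group passed the scanner's mark for signal over background, and the brightest of a gene stood for it. The 4 group means were compared by lmFit and eBayes of limma 3.58.1 (R 4.3.3) with Benjamini-Hochberg adjustment, and files were read by data.table (version 1.17.8) and jsonlite (version 2.0.0). It was tested on simulated data. A bound was taken against the floor, the lowest signal well above background (−6.17 to −4.67), or against the probe's own signal where that was higher.

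The labels do not say that lines came from separate embryos, so p-values measure the spread between these samples. The members, gene lists and tests were chosen with earlier results of these data known. Any member may be named, those called anywhere with values on every array, and genes outside the list where a cluster or marker list holds them. Alternatives were median and quantile scaling, normexp (on the median signal, since the files hold no mean signal) with an offset of 50, no or a stricter filter on dim probes, the mean over probes, the deposited values, slide, passage, replicate number, LS or LSFF arrays alone, and each array left out. The spread between lines, over all lines and within slides, and further probes of a member were read as additions chosen after seeing the data. All EpiSC arrays lay on slide 2, with 2iSB_LIF array 3, 2i_LIF array 4 and the LSFF arrays, and the rest lay on slide 1.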

Additional observations from a re-analysis of the deposited data

Results flagged for a closer look

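In 142 sets of 4 lines, 8 had a line far from the other 3, and chance alone marks about 1 in 20 sets. In LIF_serum, array 1 was low for Nnat at −0.12 (others 1.44 to 1.64) and for Snrpn at 3.11 (others 4.16 to 4.28). In the same group array 2 was low for Cdkn1c at 2.44 (others 3.24 to 3.40) and for Dio3 at −3.68 (others −2.86 to −2.77). In 2i_LIF, array 4 was low for Peg10 at −7.14 (others −3.35 to −2.63), where it was not well above background, and high for Commd1 at 5.07 (others 4.17 to 4.20). In EpiSC, array 1 was high for Snrpn at 3.98 (others 3.73 to 3.74) and array 3 low for Igf2r at 2.73 (others 2.82 to 2.84), both by small amounts.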

How the results depend on the processing

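Of 78 calls of a member in a comparison, 51 held under every alternative run and 27 were lost under at least 1. Those lost most often were Snrpn in 2iSB_LIF (14 alternatives, besides slide 2 alone, where its sign changed) and Usp29 in 2i_LIF (11), each against LIF_serum. For EpiSC against LIF_serum, median scaling gave 23 called members (43.4% of all genes called), in place of 12 (33.6%), and arrays of slide 2 alone gave 19 (36.8%). For 2iSB_LIF against LIF_serum, a passage term gave 9 (12.3%) and slide 1 alone 5 (11.3%), in place of 14 (20.1%). For 2i_LIF against LIF_serum, the LS arrays alone gave 7 (13.9%), slide 1 alone 5 (10.9%) and slide 2 alone 23 (27.1%), in place of 15 (18.3%). For 2iSB_LIF against 2i_LIF, a passage term gave 1 (0.271%) and slide 2 alone 14 (14.4%), in place of 0 (0.0838%). Slide 2 held 1 array of each ground state group, which is assumed to vary like the others. On slide 2 alone Plagl1 turned to 1.73 in 2iSB_LIF over 2i_LIF (adjusted p = 0.0011) and to −1.33 in EpiSC over 2iSB_LIF (9.4e-05), and Snrpn to 0.01 in 2iSB_LIF over LIF_serum (0.95). The cause was not tested. With slide as a block the counts were 15 (EpiSC over LIF_serum), 13 (2iSB_LIF over LIF_serum), 16 (2i_LIF over LIF_serum), 21 (EpiSC over 2i_LIF) and 20 (EpiSC over 2iSB_LIF). The shares of all genes called were then 33.7%, 20.5%, 18.7%, 35.8% and 35.6%. Leaving out each array in turn, counts ran from 12 to 13 in EpiSC over LIF_serum (all genes 32% to 33.3%) and 11 to 15 in 2iSB_LIF over LIF_serum (17.2% to 22.1%). They ran from 10 to 15 in 2i_LIF over LIF_serum (10 without 2i_LIF array 2, all genes 15.5% to 19.4%) and 18 to 21 in EpiSC over 2i_LIF (36.1% to 38.5%). In EpiSC over 2iSB_LIF the counts were 17 to 19 (35% to 37.6%). In 2iSB_LIF over 2i_LIF they were 0 to 1 (0.0709% to 0.174%), where Phlda2 was called without 2iSB_LIF array 1. Deviations of same-numbered lines had correlations of −0.60 to 0.40. Slides also differ within groups, so this cannot exclude that the numbers pair the lines, and the main fit used no pairing. With a replicate block 12, 13, 16, 20, 17 and 0 members were called in EpiSC over LIF_serum, 2iSB_LIF over LIF_serum, 2i_LIF over LIF_serum, EpiSC over 2i_LIF, EpiSC over 2iSB_LIF and 2iSB_LIF over 2i_LIF. Of all genes 33.4%, 19.5%, 17.6%, 37.4%, 36.3% and 0.0516% were called in the same order. Near background the size of a difference depends on the background correction: with normexp the Calcr difference in 2iSB_LIF over LIF_serum shrank to −1.13, though the call held.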

Other observations

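Imprinted genes outside the 42 were also read, 31 of 39 listed being tested. In EpiSC 10 were higher and 8 lower than in LIF_serum (58.1% called, all genes 33.6%). In 2iSB_LIF 3 were higher and 9 lower (38.7%, all genes 20.1%). In 2i_LIF 3 were higher and 5 lower (25.8%, all genes 18.3%). Osbpl5, an oxysterol-binding protein gene near the Kcnq1 cluster, had log2 differences over LIF_serum of 1.87 in EpiSC, −2.60 in 2iSB_LIF and −3.74 in 2i_LIF. Ascl2, a transcription factor of the trophoblast, was lower in all 3 groups, at −2.64 in EpiSC, −1.60 in 2iSB_LIF and −2.34 in 2i_LIF. Peg12, in the Snrpn region beside Ndn and Magel2, was higher in all 3, at 1.97 in EpiSC, 2.22 in 2iSB_LIF and 1.82 in 2i_LIF. Gpr1, next to Zdbf2, was lower in 2iSB_LIF (−1.77) and 2i_LIF (−1.53), while Zdbf2 itself was not called.

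Genes that receive or modulate IGF signals moved in EpiSC. Of 14 tested, 9 were higher and 0 lower in EpiSC than in LIF_serum (64.3% called, all genes 33.6%). In each ground state group 4 were lower and 0 higher (28.6%), where 20.1% of all genes were called in 2iSB_LIF and 18.3% in 2i_LIF. The receptor gene Igf1r was higher in EpiSC by a log2 difference of 2.43 (adjusted p = 6.7e-07), and the adaptor genes Irs1 and Irs2 by 2.04 and 2.72. Igfbp5, a secreted binding protein that fibroblasts also make, was higher by 5.54, and the fibroblast markers were higher on the same arrays, whose part in it was not tested. Igfbp6 was lower in 2iSB_LIF (−4.17) and 2i_LIF (−3.81).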
